A study of Mus musculus with 8 samples.

Results

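The expression of 9 genes of the pre-B receptor and of V(D)J recombination (*Vpreb1*, *Vpreb2*, *Igll1*, *Cd79a*, *Cd79b*, *Blnk*, *Rag1*, *Rag2* and *Dntt*) was examined in mouse hematopoietic progenitors with and without *Pcgf1*, which encodes a subunit of a variant Polycomb repressive complex. The genes were taken by symbol out of 23284 genes in the deposited tables, and all 9 were present. The 8 libraries analysed here come from 2 kinds of progenitor. IdHPCs are cultured progenitor cells derived from bone marrow LSK cells of B6CBAF1/J mice that express human Id3, an inhibitor of the E2A protein, and that grow on TSt-4 stromal feeder cells with IL-7, SCF and Flt3-L. LMPPs are lymphoid-primed multipotent progenitors isolated from bone marrow and then cultured for 4 days. In the LMPP cultures that the study describes for RT-qPCR, the same feeder cells and cytokines were used. In both cell types the controls were *Pcgf1* fl/fl and the *Pcgf1*-KO cells were ERT2-Cre:*Pcgf1* fl/fl cells given 4-OHT for 4 days, which deletes exons 2 to 7. The LMPP controls also received 4-OHT. The labels give the controls as fl/fl and name no Cre. In other experiments of the study the control IdHPCs carried ERT2-Cre and received ethanol, but for these libraries neither the Cre nor the treatment of the control IdHPCs is stated in the sources used here. Where controls lacked the Cre or 4-OHT, its effect cannot be told apart from the effect of the deletion. Each group held 2 libraries. The study describes its RNA-seq replicates as biological and independent, and the labels do not name the culture or animal behind each library. The p-values set the difference between groups against the spread between these libraries.

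The libraries held 15722759 to 25302206 reads on distinct exons in IdHPCs and 9618849 to 12578784 in LMPPs, and 1 read was worth 0.0287 to 0.0757 CPM (read counts scaled to the library total by the authors). *Pcgf1* itself was at 8.14 and 7.22 CPM in control IdHPCs and at 2.49 and 3.91 CPM in *Pcgf1*-KO IdHPCs. Its deleted exons, taken as 2 to 7 in the order of the table, held 193 and 173 reads in control 1 and 2 and 15 reads in each *Pcgf1*-KO library. In the LMPPs, *Pcgf1* was at 8.04 and 1.15 CPM under the labels control 1 and 2 and at 6.66 and 1.82 CPM under the labels *Pcgf1*-KO 1 and 2, and the same exons held 84 and 0 reads under the labels control 1 and control 2, and 76 and 0 reads under the labels *Pcgf1*-KO 1 and *Pcgf1*-KO 2. Thus 1 library of each LMPP label goes against its label, and the values of the 9 genes in LMPPs are given by label and library by library. Genes from marker lists of other lineages also moved with this division, and their part in the LMPP values below was not tested. Of 9 mature myeloid list genes tested, 7 were lower in both libraries without reads on the deleted exons than in the other 2. *Csf1r*, the M-CSF receptor, was at 52.9 and 49.2 CPM there, against 114 and 118 CPM. *Lyz2*, which encodes lysozyme, was at 37.1 and 39.6 CPM, against 93.0 and 77.7 CPM. *Mpo*, also among the 7, differed less, at 1874 and 1906 CPM against 1992 and 1996 CPM. *S100a8*, *Ngp*, *Ltf* and *Camp* of that list reached at most 0.811 CPM in any LMPP library. The list name therefore does not show that mature myeloid cells were present. Of 6 erythroid and megakaryocytic markers tested, 5 were higher in both libraries without such reads. Among them was *Pf4*, a platelet chemokine, at 66.6 and 84.3 CPM against 35.9 and 28.3 CPM. All 5 B lineage markers tested (*Cd22*, *Cd72*, *Blk*, *Spib* and *Fcrl1*) were lower in both libraries without such reads. Of 6 T lineage markers tested, 3 were lower and 2 higher in both. *S100a9*, *Epor*, *Cd22*, *Blk* and *Fcrl1*, counted among these, passed the filter of 1 CPM only through libraries in which they were high. Over all genes tested, 29.9% were lower and 26.7% higher in both libraries without such reads. Of 5 progenitor markers tested, *Kit* and *Cd34* were higher there and *Flt3* and *Ly6a* lower, with *Kit* at 384 and 352 CPM against 228 and 258 CPM and *Ly6a* at 4.14 and 2.80 CPM against 14.7 and 14.7 CPM. Progenitor genes such as *Flt3* and *Cd34* were abundant in both cell types, and 0 of 5 progenitor markers passed the test in either. The B lineage markers differed widely. *Ms4a1* had no read in the IdHPCs and *Vpreb3* had at most 11 reads in any library, while *Cd72* was at 119 to 187 CPM and *Cd22* at 8.15 to 21.8 CPM in the IdHPCs. Of the T lineage markers, *Cd3e* had no read in the IdHPCs, *Thy1* was at 178 to 206 CPM and *Lck* at 40.0 to 58.0 CPM there, and 0 of 6 tested in each cell type passed. Few genes of the mature myeloid list and the erythroid and megakaryocytic list passed the filter in IdHPCs (3 tested of each, 0 called). More did so in the LMPPs (9 and 6 tested, 0 called). The summed level of 18 stromal markers in IdHPCs was 2833 and 2426 CPM without the deletion, against 6216 and 5233 CPM with it, with all 15 tested members higher, as were 50.5% of all genes, and 2, *Col1a2* and *Sparc*, past the test, against 0.269% of all genes called higher. Their log2 fold changes were 1.27 and 1.36 (limma adjusted p = 0.0444 and 0.0271). Both calls were lost without control 1 (adjusted p = 0.0671 and 0.0541), without control 2 (0.576 and 0.303), with no filter on low values (0.216 and 0.178) and with no mean-variance trend (0.0678 and 0.0552), and that of *Col1a2* also with a filter in at least 2 libraries (0.0507) and with repeated exons kept (0.0502). The estimates without 1 control were 1.09 to 1.46 for *Col1a2* and 1.26 to 1.46 for *Sparc*. It was 50.9 to 65.0 CPM in the LMPPs. The part of these stromal reads in the IdHPC comparisons below was not tested.

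During B cell development, the RAG1 and RAG2 proteins cut the immunoglobulin genes, and TdT, the product of *Dntt*, adds nucleotides to the open ends before they are joined. Once a heavy chain has been assembled, it pairs with a surrogate light chain made of a VpreB protein (*Vpreb1* or *Vpreb2*) and λ5 (*Igll1*), and this pre-B receptor signals through CD79A and CD79B to the adaptor BLNK. E2A and EBF1 activate many of these genes, and the Id proteins hold E2A off DNA. *Rag1*, *Rag2* and *Dntt* are known to begin before the surrogate light chain genes, in lymphoid-primed progenitors.

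Several of the genes lie side by side. In mm9, *Igll1* (chr16:16860764-16864078, minus strand) and *Vpreb1* (chr16:16868495-16870936, minus strand) are 4.42 kb apart, *Vpreb2* (chr16:17980514-17981366, plus strand) lies 1110 kb further along the same chromosome, *Rag2* (chr2:101464875-101472685, plus strand) and *Rag1* (chr2:101478439-101489658, minus strand) are 5.75 kb apart, and *Blnk* (chr19:41003417-41069025, minus strand) and *Dntt* (chr19:41103765-41134013, plus strand) are 34.7 kb apart. *Cd79a* is at chr7:25682400-25687216 on the plus strand and *Cd79b* at chr11:106172655-106176076 on the minus strand. The annotated span of *Vpreb1* overlaps *Top3b* on the other strand, and those of *Rag1* and *Rag2* overlap B230118H07Rik. B230118H07Rik lies on the minus strand, the strand of *Rag1*. Only annotated spans were compared, and not exons. The library kit does not mark strand, and reads in such overlaps cannot be assigned to one gene with certainty.

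*Vpreb1* and *Vpreb2* are near copies of each other. Their annotated transcripts, 766 nt each, differed at 20 positions (97.4% identity), and their coding sequences, 429 nt each, at 9 positions. Of all 50-base windows of the coding sequence, 42.6% were identical in both genes, and the longest identical run was 196 bases. A short read from such a window cannot tell the genes apart, and their split counts are therefore uncertain. The stretch below is shown because it holds 5 of the 9 coding differences. It covers bases 298 to 387 of the coding sequence, in the second of 2 exons (mm9 chr16:16868731-16868820 on the minus strand for *Vpreb1* and chr16:17981042-17981131 on the plus strand for *Vpreb2*), 5′ to 3′, with the bases that differ in capitals.
Vpreb1: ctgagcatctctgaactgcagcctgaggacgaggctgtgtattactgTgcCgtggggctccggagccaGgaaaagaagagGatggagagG
Vpreb2: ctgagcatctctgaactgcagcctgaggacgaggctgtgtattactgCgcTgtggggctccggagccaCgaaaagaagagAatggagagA

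The windows of 250 bases before the transcription start, taken from RefSeq on GRCm38.p6, are shown for the surrogate light chain genes because these 3 genes varied together between libraries, as given below. Windows were found for 8 of the 9 genes (no entry was found for *Cd79b*). Capitals mark matches on either strand to the E-box letters CAGGTG and CAGCTG, the kind of site that E2A binds, and to CCCNNGGG, the kind of site that EBF1 binds.
Vpreb1, chr16:16869256-16869505, minus strand: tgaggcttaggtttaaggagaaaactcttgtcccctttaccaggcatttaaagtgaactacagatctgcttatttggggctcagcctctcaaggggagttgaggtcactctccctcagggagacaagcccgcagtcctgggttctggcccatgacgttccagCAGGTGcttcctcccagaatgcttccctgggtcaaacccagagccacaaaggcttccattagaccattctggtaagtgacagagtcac
Vpreb2, chr16:17980315-17980564, plus strand: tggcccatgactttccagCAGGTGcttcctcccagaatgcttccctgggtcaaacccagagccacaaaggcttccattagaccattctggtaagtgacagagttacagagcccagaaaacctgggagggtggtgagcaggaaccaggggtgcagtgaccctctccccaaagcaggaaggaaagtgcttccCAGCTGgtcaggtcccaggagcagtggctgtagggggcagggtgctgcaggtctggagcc
Igll1, chr16:16863986-16864235, minus strand: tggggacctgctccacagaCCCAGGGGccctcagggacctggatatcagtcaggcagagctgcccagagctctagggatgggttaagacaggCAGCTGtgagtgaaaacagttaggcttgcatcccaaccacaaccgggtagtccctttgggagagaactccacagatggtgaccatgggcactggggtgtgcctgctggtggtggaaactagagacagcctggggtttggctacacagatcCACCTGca
The letters CAGGTG stood in 6 of the 8 windows (*Vpreb1*, *Vpreb2*, *Igll1*, *Cd79a*, *Blnk* and *Rag1*), against 17.1% of 27025 promoter windows of the same length. CAGCTG stood in 3 of 8 (*Vpreb2*, *Igll1* and *Rag1*), against 12.8%, and CCCNNGGG in 1 of 8 (*Igll1*), against 11.7%. The match began 88 bases before the annotated start in *Vpreb1*, 232 bases before it in *Vpreb2* and 8 bases before it in *Igll1*. In *Vpreb1* and *Vpreb2* it lay in a run of 91 identical bases that begins 94 and 238 bases before the respective starts. These matches describe the letters of the windows and not sites shown to be bound.

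The first comparison asked whether loss of *Pcgf1* changed these genes in IdHPCs. None of the 9 differed between *Pcgf1*-KO and control beyond the spread between libraries in the fits that did not take replicate numbers as a block. With that block, limma called *Vpreb1* and *Igll1*, and edgeR's quasi-likelihood test with it also called *Vpreb2*, as given in the last section. The labels do not establish such pairs. The surrogate light chain genes had the highest point estimates, with a *Pcgf1*-KO mean 2.54 times the control mean for *Vpreb1* and 2.90 times for *Igll1*, but the 2 libraries of each genotype differed more from each other than the genotypes did. *Rag1* and *Rag2* were the most abundant of the 9 by mean CPM in control, and the mean of each was nearly equal between genotypes. *Blnk*, which was scarcely detected, was the only gene of the 9 whose *Pcgf1*-KO libraries were each lower than either control. With limma on log2(CPM + 1) and Benjamini-Hochberg adjustment over all 12273 genes tested, 0 of 9 members were called in either direction at an adjusted p of 0.05, while 0.269% of all genes were called higher and 0.261% lower in *Pcgf1*-KO. None of the 9 had an unadjusted p below 0.05, and 0 of 9 were called with edgeR's quasi-likelihood test, edgeR's exactTest or DESeq2. Both *Pcgf1*-KO libraries stood above both controls for 0 of the 9 members and for 25.6% of all genes tested. Both stood below for 1 of the 9 and for 21.3% of all genes.

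**Figure D1:**
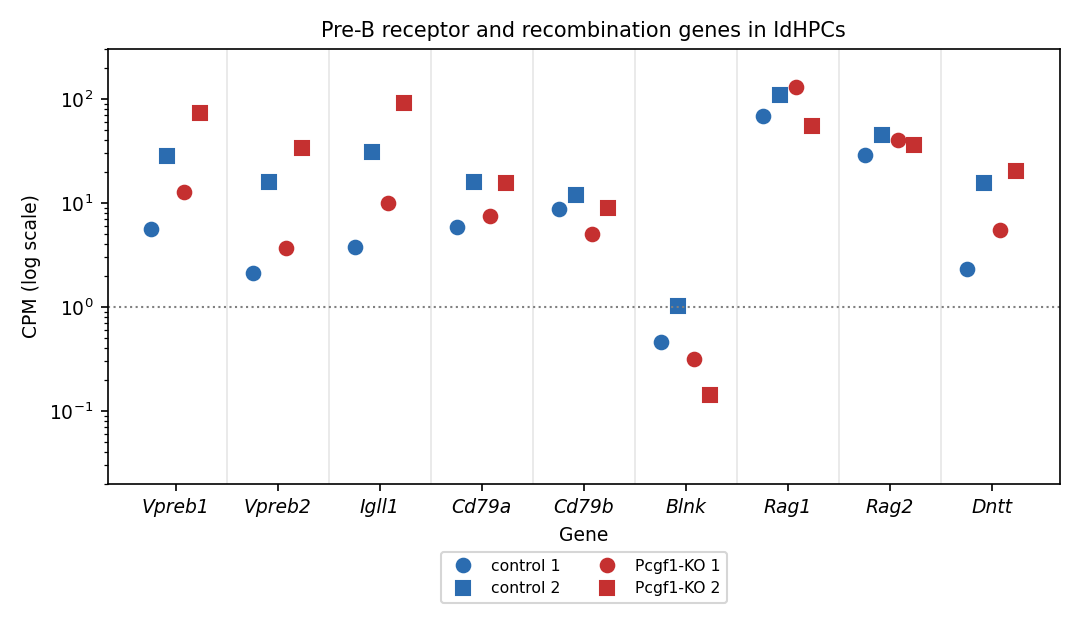
Level of the 9 genes in each IdHPC library in CPM on a log axis, with control libraries in blue and *Pcgf1*-KO libraries in red, circles for replicate 1 and squares for replicate 2. The dotted line marks 1 CPM, the filter for testing. For *Vpreb1*, *Vpreb2*, *Igll1*, *Cd79a*, *Cd79b* and *Dntt* both squares lie above both circles, and for *Blnk* both red symbols lie below both blue ones.

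*Vpreb1*, which encodes the variable-like part of the surrogate light chain, was at 5.63 and 28.4 CPM in control 1 and 2 and at 12.9 and 73.6 CPM in *Pcgf1*-KO 1 and 2. These values rest on 184, 990, 366 and 1564 reads. The groups overlapped, since *Pcgf1*-KO 1 lay between the 2 controls. The mean was 17.0 ± 16.1 CPM in control and 43.2 ± 42.9 CPM in *Pcgf1*-KO (SD, n = 2), and the log2 fold change on the log2(CPM + 1) scale was 1.20 (SE 0.75, 95% interval -0.46 to 2.87, limma adjusted p = 0.492).

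*Vpreb2*, the second VpreB gene, was at 2.14 and 15.8 CPM in control 1 and 2 and at 3.69 and 34.0 CPM in *Pcgf1*-KO 1 and 2. Its log2 fold change was 0.82 (SE 0.87, 95% interval -1.11 to 2.74, limma adjusted p = 0.697), and the groups overlapped. It held 0.38 and 0.56 times the reads of *Vpreb1* in the controls and 0.29 and 0.46 times in *Pcgf1*-KO, a ratio that depends on how reads were split between the near copies. *Igll1*, which encodes λ5, the constant-like part of the surrogate light chain, was at 3.74 and 30.9 CPM in control 1 and 2 and at 9.94 and 90.5 CPM in *Pcgf1*-KO 1 and 2. Its log2 fold change was the largest of the 9 at 1.36, but the interval ran from -0.71 to 3.44 (SE 0.94, limma adjusted p = 0.529). As for both *Vpreb* genes, replicate 2 was high and replicate 1 low in each genotype. Summed, the 3 surrogate light chain genes took 11.5 and 75.1 CPM in the control pair, against 26.5 and 198 CPM in *Pcgf1*-KO. Compared within a replicate number, *Pcgf1*-KO held 2.28 and 2.59 times the *Vpreb1* CPM of control, 1.72 and 2.15 times the *Vpreb2* CPM and 2.66 and 2.92 times the *Igll1* CPM. The labels do not say that equal numbers mark a shared experiment. The estimates rest on single libraries: without *Pcgf1*-KO 2 the log2 fold change was -0.011 for *Vpreb1*, -0.63 for *Vpreb2* and -0.17 for *Igll1*, without control 1 it was 0.13, -0.39 and -0.014, and without control 2 it was 2.28, 2.03 and 2.74.

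Neither signalling chain passed the test. The *Pcgf1*-KO mean was 1.05 times the control mean for *Cd79a* and 0.67 times for *Cd79b*. *Cd79a*, which encodes the Igα chain, was at 5.91 and 16.0 CPM in control 1 and 2 and at 7.44 and 15.5 CPM in *Pcgf1*-KO 1 and 2 (log2 fold change 0.12, SE 0.44, limma adjusted p = 0.922). *Cd79b*, which encodes Igβ, its partner, was at 8.79 and 11.9 CPM in the control pair, against 5.02 and 8.89 CPM in *Pcgf1*-KO (log2 fold change -0.54, SE 0.32, 95% interval -1.25 to 0.16, limma adjusted p = 0.467). The groups of *Cd79b* overlapped only by the small excess of *Pcgf1*-KO 2 over control 1. The ratio of *Cd79a* to *Cd79b* reads was 0.67 and 1.34 in the controls and 1.48 and 1.74 in *Pcgf1*-KO. *Blnk*, the adaptor that links the receptor to calcium signalling, was at 0.459 and 1.03 CPM in the control pair, against 0.316 and 0.141 CPM in *Pcgf1*-KO, which are 15, 36, 9 and 3 reads. It passed the filter of 1 CPM only through control 2, so that the direction of its difference (log2 fold change -0.49, SE 0.32, limma adjusted p = 0.512) is partly fixed by that filter. At so few reads the size of the estimate differed with the pseudocount and the tool, with -1.33 at a pseudocount of 0.1, -1.65 in both edgeR tests and -1.71 in DESeq2.

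The recombinase genes did not share the pattern of the surrogate light chain genes. *Rag1* was at 68.8 and 109 CPM in control 1 and 2 and at 130 and 54.5 CPM in *Pcgf1*-KO 1 and 2, so that the 2 *Pcgf1*-KO libraries lay on either side of both controls. Its log2 fold change was -0.04 (SE 0.37, 95% interval -0.86 to 0.78, limma adjusted p = 0.969). *Rag2* was at 29.1 and 44.6 CPM in the control pair, against 40.2 and 36.2 CPM in *Pcgf1*-KO, within the range of the controls (log2 fold change 0.08, SE 0.26, 95% interval -0.50 to 0.66, limma adjusted p = 0.914). This was the narrowest interval of the 9. The ratio of *Rag1* to *Rag2* reads was 2.37 and 2.44 in the controls and 3.23 and 1.51 in *Pcgf1*-KO. *Dntt*, which encodes TdT, was at 2.30 and 15.5 CPM in control 1 and 2 and at 5.55 and 20.2 CPM in *Pcgf1*-KO 1 and 2, with overlapping groups (log2 fold change 0.68, SE 0.68, 95% interval -0.84 to 2.19, limma adjusted p = 0.681).

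**Figure D2:**
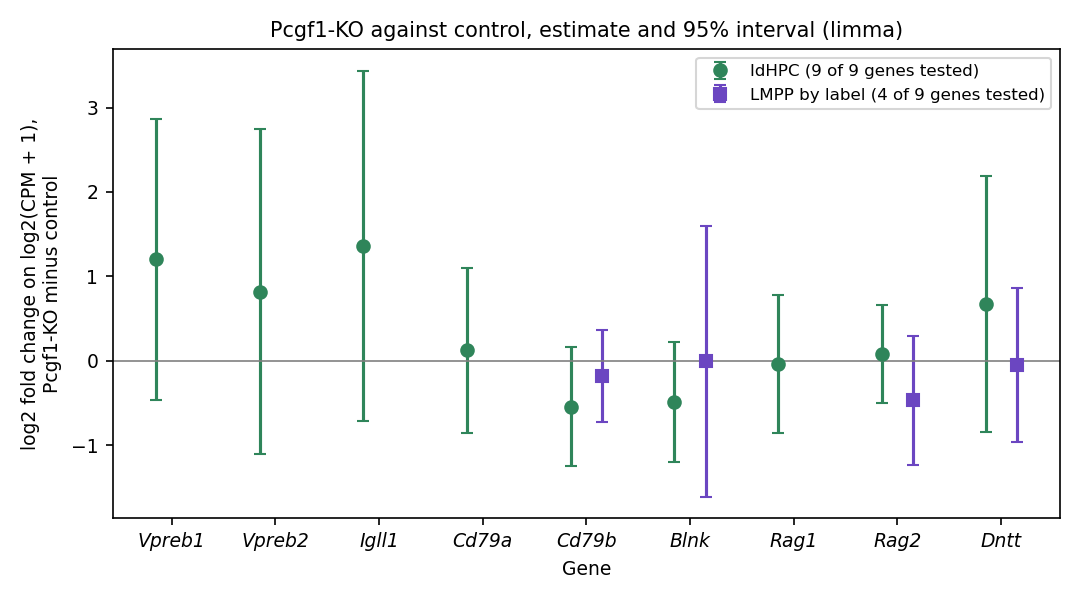
Log2 fold change of *Pcgf1*-KO over control on the log2(CPM + 1) scale (y axis) for each gene (x axis), with bars for the 95% interval from limma. Circles are IdHPCs, where 9 of 9 genes were tested, squares are LMPPs grouped by label, where 4 of 9 were tested, and every interval includes 0.

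The larger contrast in IdHPCs was between replicate numbers. Replicate 2 held 5.04 times the *Vpreb1* CPM of replicate 1 in control and 5.73 times in *Pcgf1*-KO, and the corresponding ratios were 7.37 and 9.21 for *Vpreb2*, 8.29 and 9.11 for *Igll1*, 6.75 and 3.65 for *Dntt* and 2.71 and 2.08 for *Cd79a*. Among all 12273 genes, the gap of *Igll1* between the 2 libraries on the log2(CPM + 1) scale, 2.75 in control and 3.06 in *Pcgf1*-KO, was the largest in either genotype. The median gap of all genes, without sign, was 0.21 and 0.32. For *Vpreb1*, *Vpreb2* and *Dntt* at most 0.530% of genes had a larger gap in either genotype. *Rag1* did not follow, at 1.58 times in control and 0.42 times in *Pcgf1*-KO, nor did *Rag2*, at 1.54 and 0.90 times, and the gaps of *Cd79b* and *Blnk* were exceeded by 14.4% or more of genes in both genotypes. The exons of each gene gave the same picture. Both exons of *Vpreb1*, both of *Vpreb2*, all 3 of *Igll1*, all 5 of *Cd79a* and all 12 of *Dntt* were higher in replicate 2 in both genotypes. The summed B lineage markers were also higher in replicate 2 (175 and 289 CPM in control, 141 and 218 CPM in *Pcgf1*-KO). This sum was made mostly of *Cd72*, *Blk* and *Cd22* in control. In *Pcgf1*-KO it was mostly *Cd72* and *Cd22*, with *Blk* at 0.702 and 4.09 CPM. Of the 7 B lineage markers tested, these 3 were higher in replicate 2 in both genotypes and 2, *Pax5* and *Spib*, were lower in both, although *Spib* passed the filter only through replicate 1 of the control. The stromal sum was lower in replicate 2, with 12 of 15 markers tested lower in both genotypes, and the part of these markers in the contrast was not tested. The share of all genes lower or higher in replicate 2 in both genotypes was not counted. The B lineage and stromal counts therefore have no background beside them. In these bulk samples a larger share of cells with a transcript and more transcript per cell cannot be told apart.

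**Figure D3:**
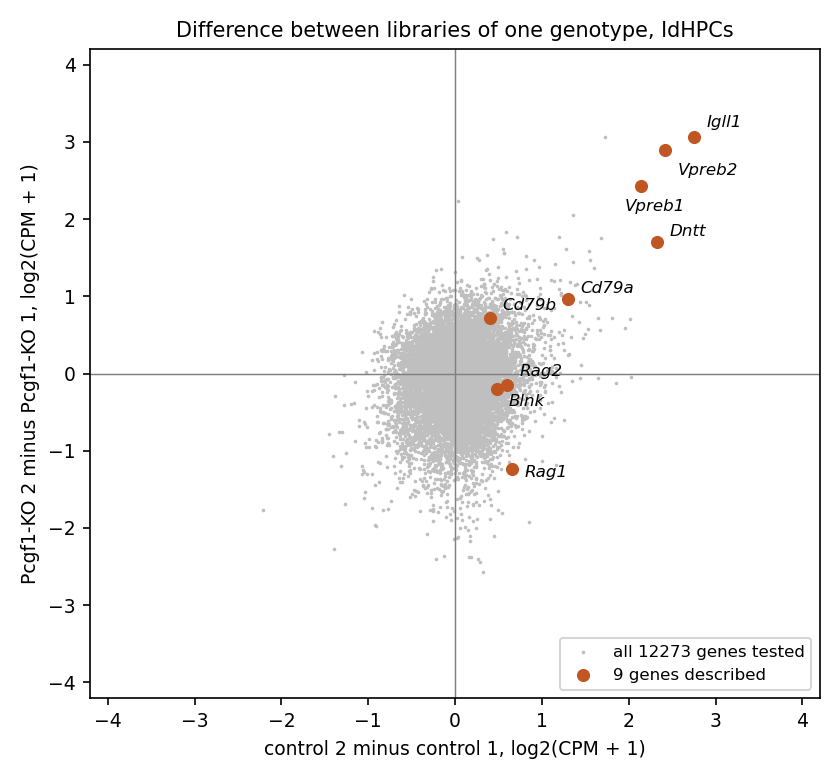
Difference between the 2 libraries of one genotype in IdHPCs on the log2(CPM + 1) scale, replicate 2 minus replicate 1, in control (x axis) and in *Pcgf1*-KO (y axis), for 12273 genes in grey and the 9 genes in orange. *Igll1* stands farthest out on both axes at 2.75 and 3.06, while *Rag1* lies below 0 on the y axis.

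In LMPPs, the genes divided into those expressed and those at the limit of detection. *Dntt* was the most abundant, *Cd79b*, *Blnk* and *Rag2* were measurable, and the other 5 did not reach 1 CPM in any library. Each label held 1 library with reads on the deleted *Pcgf1* exons and 1 without. A test by label therefore cannot measure the effect of the deletion in LMPPs. Grouped by label, none of the 4 genes tested passed the test between *Pcgf1*-KO and control. With limma over 12153 genes, 0 of 4 were called, as were 0% of all genes higher and 0% lower, and the adjusted p of each was 0.99997. At an unadjusted p below 0.05, limma gave 2 genes, both higher, and edgeR's quasi-likelihood test gave 3, none of them among the 9, and edgeR also called 0 after adjustment. Both libraries labelled *Pcgf1*-KO stood above both labelled control for 0 of the 4 members and for 5.92% of all genes, and below for 1 of the 4 (*Rag2*) and for 6.3% of all genes.

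*Dntt* was at 180 and 90.1 CPM under the labels control 1 and 2, and at 160 and 94.3 CPM under the labels *Pcgf1*-KO 1 and 2, which are 2438, 1565, 2331 and 1245 reads (log2 fold change by label -0.05, SE 0.38, 95% interval -0.97 to 0.87). *Blnk* was at 7.96 and 1.78 CPM under the labels control 1 and 2, and at 6.73 and 2.20 CPM under the labels *Pcgf1*-KO 1 and 2, which are 108, 31, 98 and 29 reads (log2 fold change by label -0.01, SE 0.65, 95% interval -1.61 to 1.59). For both genes the low values are those of the 2 libraries without reads on the deleted *Pcgf1* exons, one of each label. All 12 exons of *Dntt* and 11 of the 17 exons of *Blnk* were lower in both of these libraries than in the other 2. These are 2 of the 4 members tested, and 29.9% of all genes tested had both of these libraries below the others. No member tested had both of them above, against 26.7% of all genes. Since this division of the libraries was read from the data and not from the labels, no mean and no test is given for it. The same division is that by replicate number, and the 2 cannot be told apart.

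**Figure D4:**
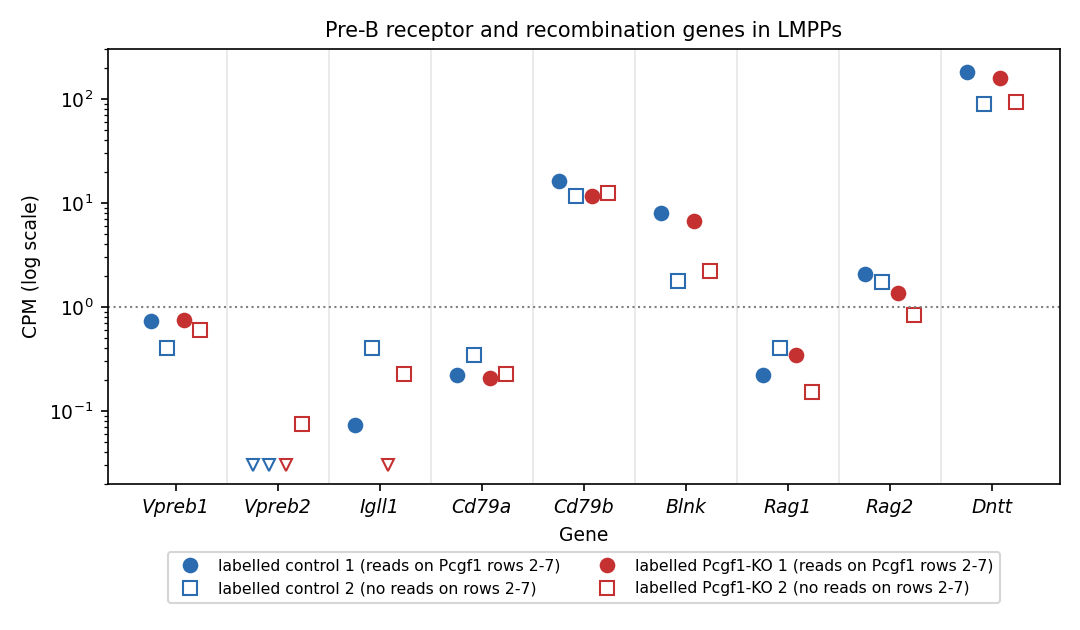
Level of the 9 genes in each LMPP library in CPM on a log axis, blue for the libraries labelled control and red for those labelled *Pcgf1*-KO. Filled circles have reads on the deleted *Pcgf1* exons and open squares have none, triangles at the lower edge stand for 0 reads, and for *Blnk* and *Dntt* both open squares lie below both circles.

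**Figure D5:**
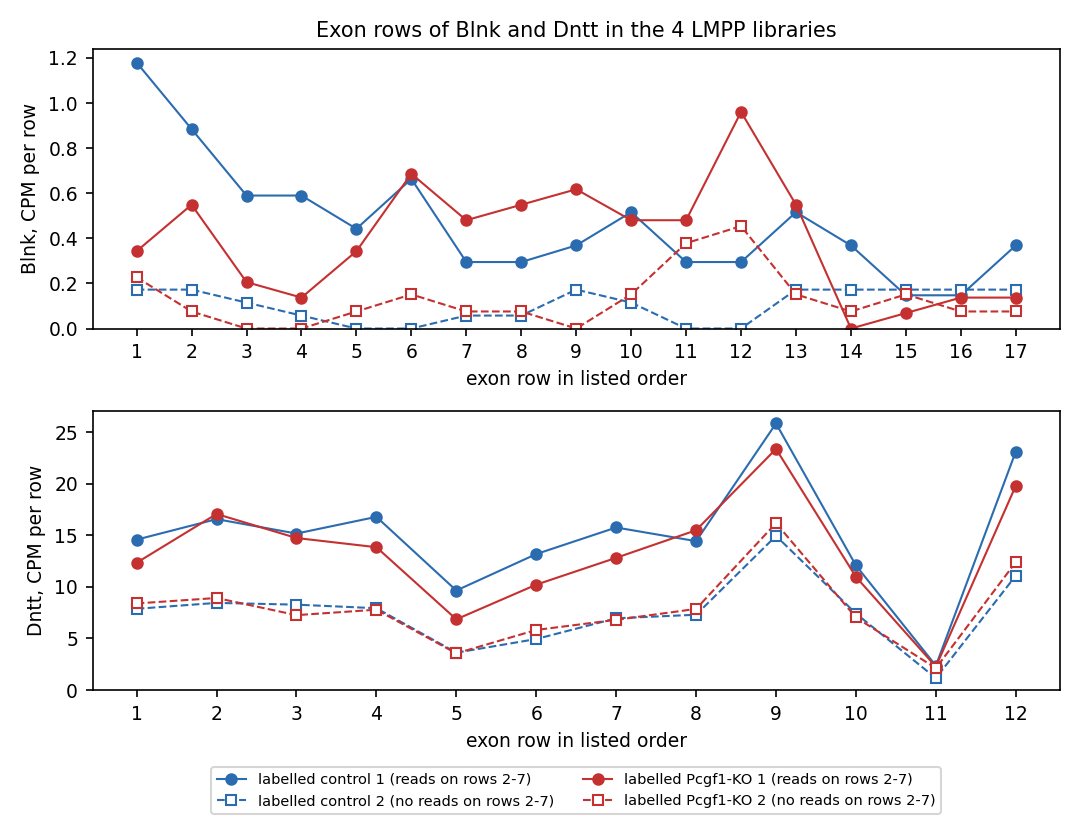
CPM of each exon of *Blnk* (upper panel, 17 exons) and *Dntt* (lower panel, 12 exons), numbered in the order of the deposited table, in the 4 LMPP libraries, with dashed lines and open squares for the 2 libraries without reads on the deleted *Pcgf1* exons. The dashed lines run below both solid lines at all 12 exons of *Dntt* and at 11 of 17 of *Blnk*.

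*Cd79b* was at 16.3 and 11.6 CPM under the labels control 1 and 2, and at 11.7 and 12.3 CPM under the labels *Pcgf1*-KO 1 and 2 (log2 fold change by label -0.18, SE 0.22, 95% interval -0.73 to 0.36). It followed neither division of the libraries. *Rag2* was at 2.06 and 1.73 CPM under the control label and at 1.37 and 0.833 CPM under the *Pcgf1*-KO label, which are 28, 30, 20 and 11 reads (log2 fold change by label -0.47, SE 0.31, 95% interval -1.24 to 0.29). *Rag1* had 2 to 7 reads per library, *Cd79a* 3 to 6 and *Vpreb1* 7 to 11. *Igll1* had 1, 7, 0 and 3 reads, and *Vpreb2* had a single read, in the library labelled *Pcgf1*-KO 2. A count of 0 allows a level of up to 3 reads, or 0.173 to 0.227 CPM in these libraries, and differences among these 5 genes were not detectable at this depth.

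The 2 cell types were set side by side without a test, since their tables were normalized separately. All 4 IdHPC libraries exceeded all 4 LMPP libraries for 6 genes. The share of all genes that separated the 2 cell types was not counted, so this count cannot be called particular to these genes. The highest LMPP and the lowest IdHPC values were 0.755 and 5.63 CPM for *Vpreb1*, 0.0757 and 2.14 CPM for *Vpreb2*, 0.403 and 3.74 CPM for *Igll1*, 0.345 and 5.91 CPM for *Cd79a*, 0.403 and 54.5 CPM for *Rag1* and 2.06 and 29.1 CPM for *Rag2*. The order was the opposite for *Dntt*, with 90.1 CPM or more in LMPPs and 20.2 CPM or less in IdHPCs, and for *Blnk*, with 1.78 CPM or more in LMPPs and 1.03 CPM or less in IdHPCs. *Cd79b* overlapped.

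Levels of different genes were compared per kilobase of transcript, in CPM per kb of the control libraries. In IdHPCs the order by mean was *Igll1* (23.9 ± 26.5, SD, n = 2), *Vpreb1* (22.2 ± 21.0), *Rag1* (13.4 ± 4.3), *Vpreb2* (11.7 ± 12.6), *Rag2* (10.8 ± 3.2), *Cd79a* (7.5 ± 4.9), *Cd79b* (7.2 ± 1.6), *Dntt* (4.2 ± 4.4) and *Blnk* (0.36 ± 0.19). Every neighbouring pair in this order overlapped between libraries except *Dntt* and *Blnk*. In control 1 *Rag1* was the highest of the 9 at 10.4 CPM per kb, while in control 2 *Igll1* was the highest at 42.6. In the LMPP libraries labelled control, *Dntt* was at 84.5 and 42.3 CPM per kb, *Cd79b* followed at 11.4 and 8.08, and *Blnk* was at 3.80 and 0.851, with no overlap between *Dntt* and *Cd79b* or between *Cd79b* and *Blnk*. The remaining genes were below 1 CPM per kb.

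The other genes of these processes were described by 3 lists of known members. Among genes that carry signals from the pre-B receptor, 1 of 18 tested passed in IdHPCs, against 0.261% of all genes called lower. This was *Blk*, a Src family kinase of B cells, which fell from 29.3 and 87.0 CPM in control 1 and 2 to 0.702 and 4.09 CPM in *Pcgf1*-KO 1 and 2 (log2 fold change -4.13, SE 0.55, limma adjusted p = 0.0139). Its groups did not overlap, and within each genotype it was also higher in replicate 2. The call was lost with no filter on low values (limma adjusted p = 0.195) and held without each library in turn (0.0146 or less). Of the 18, 3 had a positive and 15 a negative estimate, with a median of -0.22 against 0.01 over all genes, of which 50.5% had a positive one. *Syk*, the kinase that BLNK acts downstream of, was at 147 and 173 CPM in control and at 103 and 94.7 CPM in *Pcgf1*-KO (log2 fold change -0.69, SE 0.21, limma adjusted p = 0.166), and *Pik3ap1*, an adaptor for PI3 kinase, had an estimate of -0.71 (SE 0.26, limma adjusted p = 0.254).

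Among 17 genes that hold and repair the V(D)J breaks, 0 passed in IdHPCs, with 6 positive and 11 negative estimates and a median of -0.06. *Polm*, a DNA polymerase related to TdT, was at 5.45 and 5.93 CPM in control and at 11.5 and 12.9 CPM in *Pcgf1*-KO (log2 fold change 0.98, SE 0.27, limma adjusted p = 0.117). *Dclre1c*, the Artemis nuclease that opens the hairpin ends, had an estimate of -0.56 (SE 0.26), as did *Prkdc*, the kinase that activates it (SE 0.24). Neither passed the test.

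Among the transcription factors that control these genes, 0 of 15 tested passed in IdHPCs, with 6 positive and 9 negative estimates and a median of -0.09. *Pax5*, the factor of B cell commitment, was at 6.31 and 3.70 CPM in control and at 2.42 and 0.423 CPM in *Pcgf1*-KO (log2 fold change -1.41, SE 0.42, limma adjusted p = 0.153), with groups that did not overlap. *Spib*, an Ets family factor, had an estimate of -0.73 (SE 0.39) but passed the filter only through control 1 (2.30 and 0.487 CPM in control, 0.386 and 0.282 CPM in *Pcgf1*-KO), and *Id2*, an inhibitor of E2A, had one of -0.72 (SE 0.33). Neither passed the test. Of the tested B lineage markers, 1 of 7 was called in IdHPCs, again *Blk* (background 0.261% called lower), and 0 of 5 in LMPPs. In IdHPCs 1 of the 7 had a positive and 6 a negative estimate, with a median of -0.73 against 0.01 over all genes. *Spib* and *Fcrla*, among the 6, passed the filter only through a control library. In LMPPs grouped by label, 0 of 19 genes of the signalling list, 0 of 17 of the repair list, 0 of 12 of the factors and 0 of 4 stromal markers tested passed. Library by library, *Blk* was at 2.21, 0.633, 2.54 and 0.833 CPM and *Spib* at 12.2, 2.59, 12.5 and 4.09 CPM under the labels control 1, control 2, *Pcgf1*-KO 1 and *Pcgf1*-KO 2, in that order. Both had their low values in the 2 libraries without reads on the deleted *Pcgf1* exons, but *Blk* passed the filter of 1 CPM only through the other 2, so that its place is partly fixed by that filter. Of the genes tested, 7 of 19 of the signalling list, 4 of 17 of the repair list and 6 of 12 factors were lower in both of these libraries, against 29.9% of all genes. The 7 include *Blk* and *Cd22*, which both passed the filter only through libraries with such reads. In the 3 gene lists, 6, 2 and 3 members were higher in both of these libraries, against 26.7% of all genes. *Syk* was among those higher, at 190 and 172 CPM there and at 163 and 165 CPM in the other 2.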

How the data were processed

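RNA was sequenced from 2 control and 2 *Pcgf1*-KO libraries each of IdHPCs and LMPPs, grouped by their labels. The authors isolated poly(A) RNA, prepared libraries with a kit that does not mark strand, used HISAT2 for alignment to mm9, Rsubread for counting and edgeR for the CPM they deposited, and the submitters' processing notes also name TopHat2 2.0.13. Each of the 2 deposited CPM tables lists exons (284716), so that exon values, and not the gene values the design had assumed, were the start. Exons equal to the one before in all 8 libraries (26.0% to 27.7% of reads) were counted once and summed per symbol. Every value was a whole multiple of 1 read within 0.01 reads (100%), which gave 9618849 to 25302206 reads per library, and a read across exons may count on each. The floor (3 reads) covers counting error only, and the limma intervals reflect the spread between libraries.

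No test spanned both tables. Each was fitted with limma 3.58.1 (R 4.3.3, with mean-variance trend) on log2(CPM + 1), over genes at 1 CPM or more in at least 1 library. This fold change understates low genes. edgeR 4.0.16 and DESeq2 1.42.0 were run on the recovered reads, and in the IdHPCs edgeR's quasi-likelihood test called 124 genes where limma called 65. On simulated data with a dispersion of 0.02, which does not cover genes that vary more between libraries, limma recovered 200 of 200 genes changed by 2 on the log2 scale among 12104 (IdHPCs) and 193 of 200 among 12060 (LMPPs), with 11 and 7 false calls. Transcript lengths and loci are from GENCODE vM1. The genes, the lists and the markers were chosen with earlier results of these data known. Named beyond the 9 are list genes past the test and the 3 with the largest fold change in IdHPCs per list. Cell markers were named after their values were seen. Alternatives covered scaling, pseudocount (0.1), filters, trend, repeated exons, tools, left-out libraries and replicate numbers as a block.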

Additional observations from a re-analysis of the deposited data

How the results depend on the processing

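No member tested was called under any alternative without a replicate block. In IdHPCs 9 members were tested, or 8 with the filter in at least 2 libraries and without control 2, and in LMPPs 4, or 9 with no filter. The count of all IdHPC genes called was 65, and it was 0 with no filter on low values (where 1996 genes had an unadjusted p below 0.05 in limma), 124 with edgeR's quasi-likelihood test, 610 with edgeR's exactTest and 497 with DESeq2. Of the called genes, 50.8% were higher in *Pcgf1*-KO with limma, 62.1% with edgeR's quasi-likelihood test, 73.9% with exactTest and 69.2% with DESeq2. Leaving out one library gave 14 to 825 calls (67 without control 1, 14 without control 2, 825 without *Pcgf1*-KO 1 and 230 without *Pcgf1*-KO 2), with the lone library assumed to vary like the other group. It gave 0 calls among the 9 genes each time, and the cause of these shifts was not tested.

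Equal replicate numbers do not establish pairs here, with 2 pairs per cell type. Libraries of equal number deviated together across genes with r = 0.15 in IdHPCs and 0.71 in LMPPs. In LMPPs the number coincides with the reads on the deleted *Pcgf1* exons (84 and 76 under number 1, 0 and 0 under number 2). The 2 cannot be told apart there. With the number as a block in limma, 669 IdHPC genes were called (72.3% higher), 2 of them members (*Vpreb1* at a log2 fold change of 1.20, adjusted p = 0.00718, and *Igll1* at 1.36, adjusted p = 0.00257), and 3 LMPP genes. With the block in edgeR's quasi-likelihood test, chosen after seeing the data, 848 IdHPC genes (70.8% higher) were called, 3 of them members (*Vpreb1*, *Vpreb2* and *Igll1*, edgeR adjusted p = 0.000835, 0.0351 and 9.41e-05), and 3 LMPP genes.

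Single libraries decided the sign of most IdHPC estimates. Over the fits that each left out one library, the log2 fold change ran from -0.011 to 2.42 for *Vpreb1*, -0.63 to 2.27 for *Vpreb2*, -0.17 to 2.89 for *Igll1*, -0.53 to 0.77 for *Cd79a*, -0.66 to 0.58 for *Rag1*, -0.22 to 0.38 for *Rag2* and -0.48 to 1.84 for *Dntt*, while *Cd79b* (-0.90 to -0.19) kept its sign. *Blnk* ran from -0.73 to -0.39, but it was tested only where control 2, through which it passed the filter, was kept, so that its sign was partly fixed. The median of the 9 was 0.12, and it was -0.39 without control 1, 1.31 without control 2, 0.60 without *Pcgf1*-KO 1 and -0.17 without *Pcgf1*-KO 2. *Rag1* turned to 0.048 with edgeR's quasi-likelihood test, 0.047 with exactTest and 0.027 with DESeq2. In LMPPs by label the same ranges were -0.85 to 0.84 for *Blnk*, -0.55 to 0.44 for *Dntt*, -0.41 to 0.049 for *Cd79b* and -0.66 to -0.28 for *Rag2*, and *Blnk* turned to 0.022 with a pseudocount of 0.1. In CPM instead of CPM per kb, *Rag1* and *Rag2* ranked 1 and 2 in control IdHPCs and *Igll1* 3. Depth limited the 5 LMPP genes below 1 CPM.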
